A study of Mus musculus with 6 samples.

Results

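The epidermal growth factor (EGF) receptor family and its ligands were examined at 9 genes of the mouse genome: the ligand genes Areg, Ereg, Epgn, Btc, Tgfa and Hbegf and the receptor genes Egfr, Erbb2 and Erbb3. They are 9 of the 21887 protein-coding genes in the RefSeq gene table, and do not include the related genes Egf, Erbb4 and the neuregulins, which are described with the pathway. For each gene, every peak summit inside the gene or within 50 kb of its start or end coordinate was taken from 6 lists of chromatin immunoprecipitation sequencing (ChIP-seq) summits. A summit is the single base at which the authors' peak caller placed the top of a peak.

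The tumor epithelium came from mice of the genotype CluCreERT2;R26rtTA;HA-Yap+, in which a tamoxifen-activated Cre driven by Clu permits doxycycline-induced expression of HA-tagged Yap. The normal epithelium came from WT mice. Tamoxifen (2 mg on 5 days) and then DOX food (14 days) are given in the labels for both groups, and ages are not given. All 6 libraries were made from uncultured gastric corpus epithelial cells released with EDTA. YAP was profiled in 2 tumor and 2 normal libraries, and H3K27ac (acetylated histone H3 lysine, found at promoters and enhancers in use) in 1 tumor and 1 normal library. Nothing in the labels says that libraries came from separate animals, so a p-value here reflects variation between libraries that could be purely technical. Cre driven by Clu acts only in cells that have expressed Clu, and a summit in the bulk epithelium does not say which of its cells carry it.

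The ligands are made as membrane-anchored precursors that are shed and then bind a receptor of the ERBB family, which pairs with another receptor and signals through its intracellular tyrosine kinase. In the stomach, EGF receptor ligands take part in mucosal repair and in the control of surface mucous and parietal cells, and excess TGF-alpha is known in human hypertrophic gastropathy. YAP is a coactivator that has no DNA-binding domain of its own and reaches DNA mainly through TEAD factors, often beside AP-1 factors. AREG is known as a YAP target in human mammary epithelial cells.

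The lists held 38268 and 53904 YAP summits on the main chromosomes in tumor 1 and tumor 2, and 1654 and 2141 in normal 1 and normal 2. The H3K27ac lists held 66896 summits in tumor and 22574 in normal. Sequencing depth is unknown. Groups follow the labels, but words inside the peak names go against them for a pair of YAP libraries. The names of YAP tumor 1 carry the word cre, as do those of YAP normal 1 and the normal H3K27ac library. The names of YAP normal 2 carry Clu_Yap, as do those of YAP tumor 2 and the tumor H3K27ac library. Every direction between YAP groups therefore rests on the labels. H3K27ac summits lay at or within 1 kb of 14 of 15 gastric epithelial marker genes in the tumor library and 14 of 15 in the normal library, Gkn1 being without one in tumor and Tff2 in normal. Markers of immune cells had summits at 3 of 7 genes in tumor (6 summits) and 2 of 7 in normal (3 summits), with none at Cd3e or Lyz2 in either. Markers of fibroblasts, muscle and endothelium had them at 7 of 8 genes in tumor (26 summits) and at 4 of 8 in normal (7 summits). Acta2 was without one in tumor, and Dcn, Myh11, Pdgfra and Cdh5 in normal. These marker counts use the full lists, and the tumor list is 2.96 times as long as the normal one. Within 1 kb of a gene's start or end, 64.5% of all genes had a tumor summit and 48.0% a normal one. The marker counts also take in summits deeper inside the gene, and no share over all genes counted that way is given here. The part of these other cell types in the H3K27ac values below was not tested.

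In the tumor libraries YAP was found around all 9 genes, and in the normal libraries almost nowhere near them. The 9 windows, which join into 7 separate stretches of 1.17 Mb in all, held 45 and 73 YAP summits in tumor 1 and tumor 2, and 1 each in normal 1 and normal 2. The groups did not overlap. The mean was 59 ± 19.8 summits in tumor and 1 ± 0 in normal (SD, n = 2 each). A two-sided exact permutation of the 4 libraries returned p = 0.333, and 2 against 2 can go no lower. Summed over libraries, the ratio of tumor to normal was 59 (95% exact interval 16.0 to 493, counting error only). Over the whole lists the same ratio was 24.3. With every YAP list shortened to its 1654 best-scored summits the windows held 2 and 2 summits in tumor and 1 and 0 in normal. With libraries regrouped by their peak-name words, the log2 ratio (Clu_Yap over cre, count plus 1) was 0.34 in place of 4.87 (exact permutation p = 1.0, n = 2 per group).

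Both tumor counts lay above both normal counts at 9 of 9 members, and this held for 79.2% of all protein-coding genes. Both lay below at 0 of 9, against 0.0366% of all genes. A site of both tumor libraries, meaning a tumor 1 summit paired with a tumor 2 summit within 200 bp and placed at their midpoint, was present at 9 of 9 members and likewise at 79.2% of all genes. A site of both normal libraries was present at 0 of 9 members, against 2.05% of all genes. The members' median was 5 sites of both tumor libraries per gene, against a median of 3 over all genes. In the 9 windows 41 different sites were found, 16 around ligand genes and 25 around receptor genes. Of the 45 tumor 1 summits 41 had a tumor 2 partner (91.1%, against 77.1% in the whole list), and of the 73 tumor 2 summits 41 had a tumor 1 partner (56.2%, against 54.7%).

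**Figure D1:**
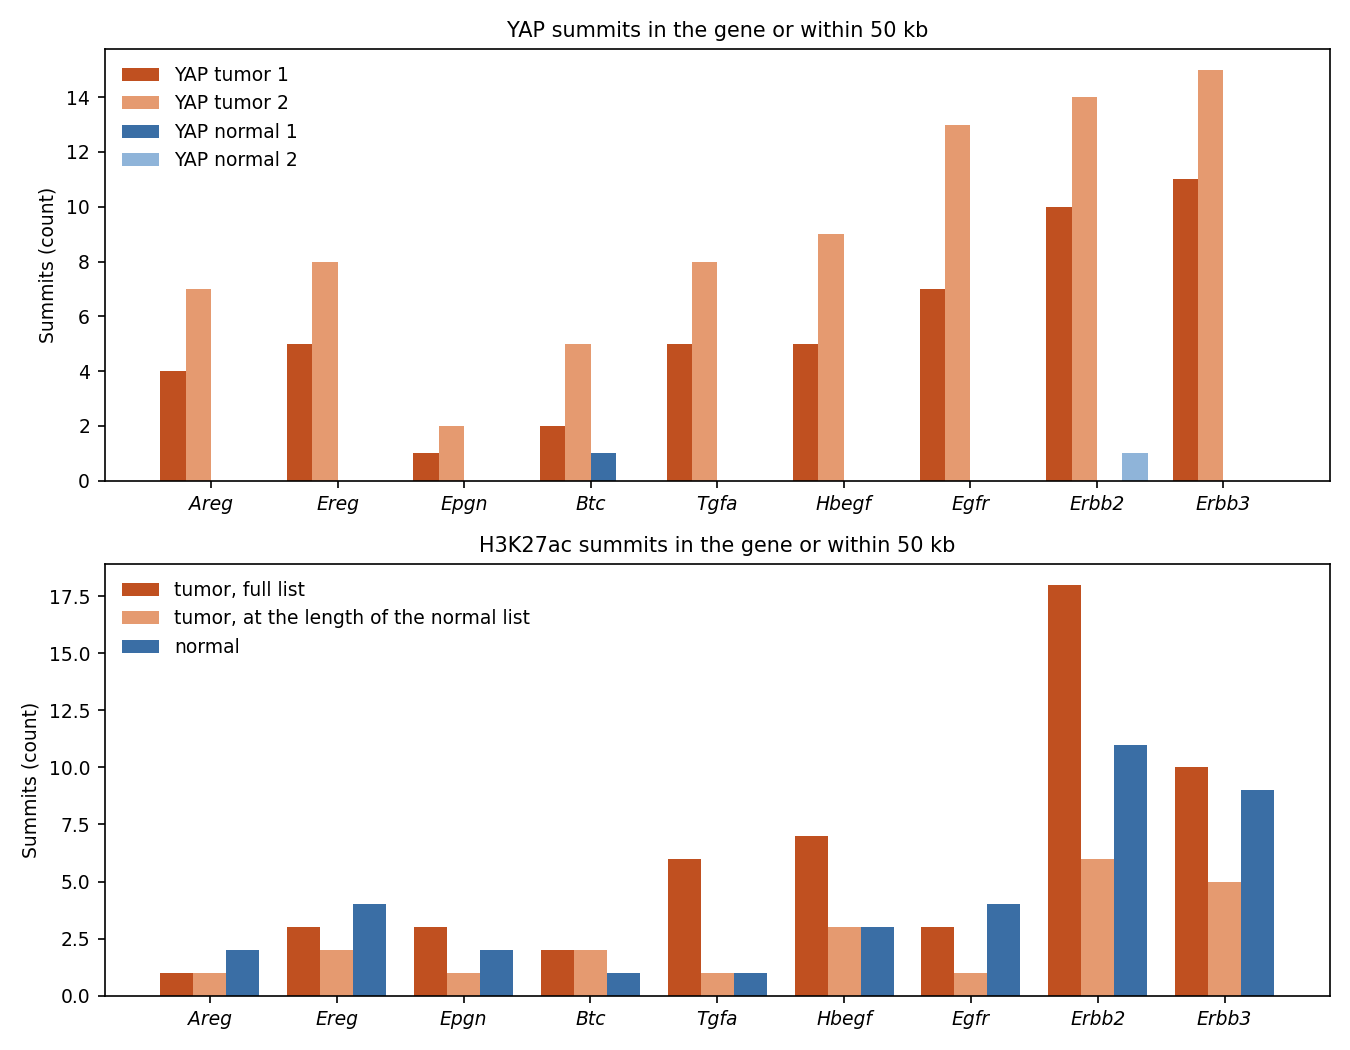
Number of YAP summits (upper panel, 4 libraries) and H3K27ac summits (lower panel, tumor full list, tumor list shortened to the length of the normal list, and normal list) inside each gene or within 50 kb of it. YAP tumor counts run from 1 at Epgn to 15 at Erbb3, while only Btc (normal 1) and Erbb2 (normal 2) have a normal YAP summit.

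A YAP site stood at the gene boundary of most of the 9 genes. A site of both tumor libraries lay within 1 kb of the start or end coordinate of Areg, Btc, Tgfa, Hbegf, Egfr, Erbb2 and Erbb3, 7 of the 9 members, against 46.5% of all genes. Of the other listed ligand and receptor genes (Egf, Erbb4 and Nrg1 to Nrg4) 2 of 6 had one, Nrg2 and Nrg4, which makes 9 of 15 together. All 7 also had a tumor H3K27ac summit within 1 kb of an end, a combination found at 44.2% of all genes. Considered alone, tumor H3K27ac stood within 1 kb of an end at 8 of 9 members (64.5% of all genes), Epgn being without it, and normal H3K27ac at 7 of 9 (48.0% of all genes), Areg and Epgn being without it. Ereg had H3K27ac and a YAP summit of tumor 2 alone at its start, and Epgn had none of these at either end.

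Promoter sequences were searched for motifs near the summits at transcript starts. RefSeq (GRCm38.p6) held a promoter, from 250 bases before to 50 bases after the transcript start, for 6 of the 9 members: Areg, Epgn, Btc, Tgfa, Egfr and Erbb2. Ereg, Hbegf and Erbb3 had none, and their strand was not used here. For these genes start and end are coordinates only, and either may be the transcript start. At 4 of the 6, at least 1 tumor YAP summit fell inside this stretch, and these 4 are printed 5′ to 3′ on the gene's own strand. Capitals mark each match, on either strand, to GGAATG (the core bound by TEAD factors), TGANTCA (AP-1), TGACGTCA (the cAMP response element, CRE) or TATAAA (the TATA box).
Areg: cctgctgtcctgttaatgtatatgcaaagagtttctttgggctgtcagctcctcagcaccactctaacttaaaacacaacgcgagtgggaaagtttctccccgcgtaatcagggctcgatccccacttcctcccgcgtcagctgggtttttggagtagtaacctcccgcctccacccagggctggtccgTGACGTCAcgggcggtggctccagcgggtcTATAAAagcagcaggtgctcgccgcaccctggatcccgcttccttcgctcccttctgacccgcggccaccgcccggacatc
Btc: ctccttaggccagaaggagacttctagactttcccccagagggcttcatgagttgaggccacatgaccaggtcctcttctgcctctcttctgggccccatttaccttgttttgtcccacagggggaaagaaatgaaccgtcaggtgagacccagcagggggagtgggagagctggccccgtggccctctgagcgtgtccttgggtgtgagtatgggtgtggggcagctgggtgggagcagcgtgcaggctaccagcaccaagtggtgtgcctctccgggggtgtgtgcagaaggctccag
Tgfa: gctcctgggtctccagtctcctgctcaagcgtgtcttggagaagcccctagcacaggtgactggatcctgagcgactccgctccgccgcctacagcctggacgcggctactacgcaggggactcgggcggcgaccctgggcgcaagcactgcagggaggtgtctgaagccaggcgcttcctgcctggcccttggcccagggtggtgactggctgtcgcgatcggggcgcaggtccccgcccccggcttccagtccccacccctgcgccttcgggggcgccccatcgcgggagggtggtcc
Erbb2: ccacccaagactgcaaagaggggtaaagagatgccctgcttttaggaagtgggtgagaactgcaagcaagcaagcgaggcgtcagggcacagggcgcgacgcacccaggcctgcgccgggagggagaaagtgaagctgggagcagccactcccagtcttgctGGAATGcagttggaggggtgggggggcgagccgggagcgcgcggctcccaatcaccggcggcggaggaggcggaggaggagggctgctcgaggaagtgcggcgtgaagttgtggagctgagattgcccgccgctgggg
The stretches lie at chr5:91139349-91139648 (plus strand) for Areg, chr5:91402945-91403244 (minus strand) for Btc, chr6:86194972-86195271 (plus strand) for Tgfa and chr11:98412234-98412533 (plus strand) for Erbb2. In Erbb2 the YAP summits of tumor 1 and tumor 2 fell on bases 161 and 162 of the stretch, and the single GGAATG occupied bases 163 to 168. GGAATG occurred in 13.4% of the promoters of 17492 protein-coding genes. In Areg the tumor 1 summit fell on base 297, and TGACGTCA and TATAAA began 61 and 31 bases before the transcript start. Those letters occurred in 2.34% and 13.3% of promoters. Their centres lay 104 and 75 bp from the tumor 1 summit. They lay 192 and 163 bp from the tumor 2 summit, which fell outside the stretch. The Btc and Tgfa stretches held none of the 4 motifs, with the tumor 2 summit on base 188 of Btc and the tumor 1 summit on base 255 of Tgfa. TGANTCA, found in 7.08% of promoters, was in none of the 6.

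Areg encodes amphiregulin. Its window (gene at chromosome 5, 91139599 to 91148432) held 4 and 7 YAP summits in tumor 1 and tumor 2, and 0 and 0 in normal 1 and normal 2. Both tumor libraries had a summit just inside the gene start, 46 bp in for tumor 1 (score 14.4, rank 8107 of its list) and 134 bp in for tumor 2 (score 29.2, rank 5339). Scores are the authors' −log10 significance values. They rank summits within 1 list and are not compared between lists here. The tumor H3K27ac library had a summit 165 bp inside the start (score 81.6, rank 8806 of 66896), while the nearest normal H3K27ac summit lay 40868 bp away. Areg was the 1 member with tumor but no normal H3K27ac within 1 kb of an end, a state shared by 18.1% of all genes. The opposite state was found at 0 of 9 members and 1.61% of all genes. The rank of this tumor summit keeps it in the list when the tumor list is shortened to 22574 summits.

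Ereg encodes epiregulin, and its gene (91074617 to 91093649) lies between Epgn and Areg. Its window held 5 and 8 YAP summits in tumor 1 and tumor 2, and none in either normal library. At its start H3K27ac was present in both tissues. In tumor it lay 53 bp outside the gene (score 37.4, rank 15548 of 66896). In normal it lay 50 bp inside (score 13.2, rank 11297 of 22574). A YAP summit stood there in tumor 2 alone, 26 bp inside (score 7.24, rank 30918 of 53904). Of the sites with Ereg as the gene of the nearest end, the better-ranked lay 4767 bp beyond its end coordinate, at position 91098416. Its ranks were 4671 in tumor 1 and 4142 in tumor 2. A site of the window nearer to Epgn, at 91038821, ranked 5585 in tumor 1 and 1689 in tumor 2. At 91098416 H3K27ac was found in the normal library, 227 bp away, and the nearest tumor H3K27ac summit was 23852 bp away. Areg and Ereg share this stretch, so its 2 sites (91098416 and 91105397) stand in the counts of both genes, and the Areg start site also lies in the Ereg window.

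Epgn encodes epigen, a ligand of low receptor affinity. Its window held 1 and 2 YAP summits in tumor 1 and tumor 2 and none in the normal libraries, the fewest of the 9 genes. The site of both tumor libraries, 3609 bp beyond its end (position 91038821), had summits 10 bp apart with ranks of 5585 in tumor 1 and 1689 in tumor 2. No H3K27ac summit of either tissue lay within 1 kb of it, the nearest being 22795 bp away in tumor and 34986 bp away in normal. It is also in the Ereg window. The Epgn boundaries carried neither YAP nor H3K27ac within 1 kb in any library.

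**Figure D2:**
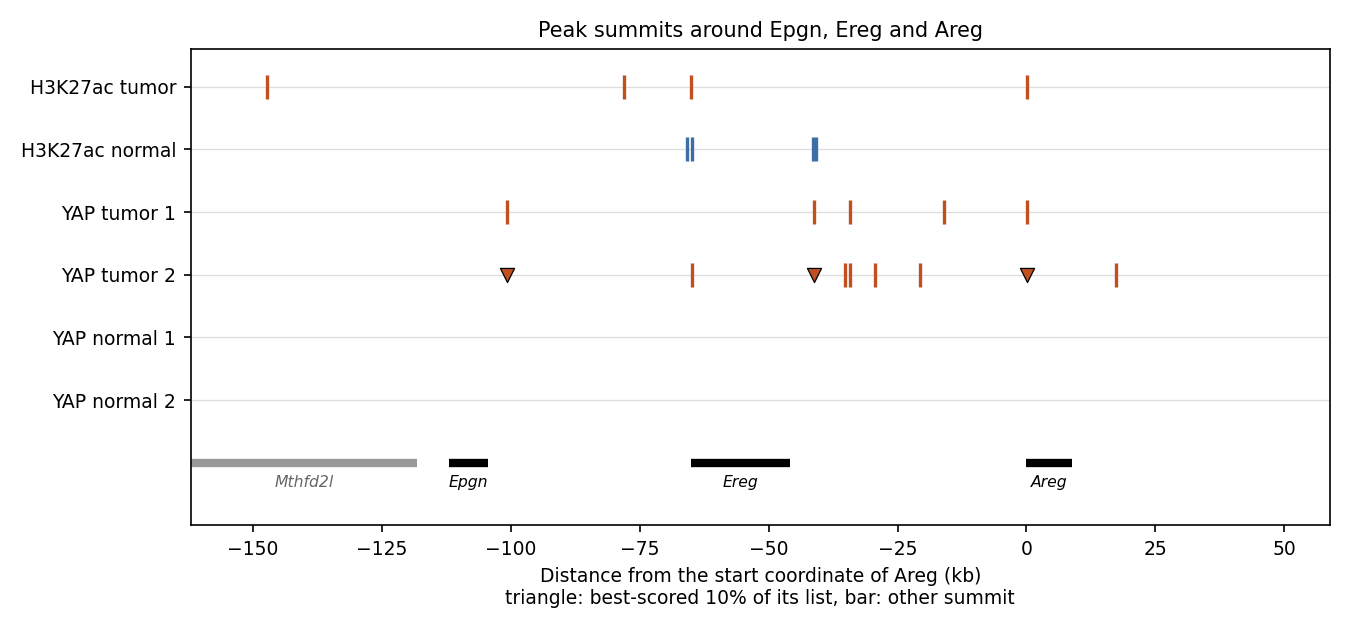
Summits of the 6 lists around Epgn, Ereg and Areg, with distance from the start coordinate of Areg in kb on the x axis and 1 row per list; triangles are in the best-scored 10% of their list, and bars at the bottom are genes. Tumor H3K27ac and YAP of both tumor libraries meet at the Areg start, and the normal H3K27ac pair between Ereg and Areg meets YAP of both tumor libraries but no tumor H3K27ac; the normal YAP rows are empty.

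Btc encodes betacellulin, which binds EGFR and ERBB4. Its window (gene at chromosome 5, 91357261 to 91402994, minus strand) held 2 and 5 YAP summits in tumor 1 and tumor 2, and 1 and 0 in normal 1 and normal 2. The normal 1 summit (score 5.39, rank 845 of 1654) lay inside the gene, 13824 bp from the nearest tumor site. Both tumor libraries had a summit at the transcript start, 50 bp inside the gene in tumor 1 (rank 6776) and 63 bp outside it in tumor 2 (rank 8050). H3K27ac stood 286 bp inside in tumor (score 198, rank 3559 of 66896). In normal it stood 326 bp inside (score 96.3, rank 798 of 22574). No other protein-coding gene reaches into the Btc window.

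Tgfa encodes TGF-alpha. In its window, around the gene at chromosome 6, 86195038 to 86275744, there were 5 and 8 YAP summits in tumor 1 and tumor 2 and none in the normal libraries. The YAP summits lay 188 bp inside the gene start in tumor 1 (rank 18794) and 373 bp inside in tumor 2 (rank 7233). H3K27ac lay 402 bp inside in tumor (score 173, rank 4528 of 66896). In normal it lay 314 bp inside (score 30.7, rank 5993 of 22574). A pair of further sites lay inside the gene, the better at 86222466, with ranks of 6819 in tumor 1 and 12223 in tumor 2. Neither had H3K27ac of either tissue within 1 kb. The full tumor H3K27ac list had 6 summits in the window and the normal list 1, and 1 of the 6 remained when the tumor list was shortened to the normal length.

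Hbegf, which encodes heparin-binding EGF-like growth factor, had the best-ranked YAP site of the ligand genes in both tumor libraries. The window around the gene at chromosome 18, 36504927 to 36515805, held 5 and 9 YAP summits in tumor 1 and tumor 2, and none in normal 1 or normal 2. The leading site at 36515888 was 83 bp beyond the end coordinate, with a score of 44.8 and rank 384 in tumor 1 and a score of 59.4 and rank 488 in tumor 2. H3K27ac lay 243 bp inside the same end in tumor (score 95.5, rank 7986 of 66896). In normal it lay 320 bp inside that end (score 6.82, rank 16515 of 22574). The other 4 sites of the window had their nearest gene end at Slc4a9 (3 sites) or Ankhd1 (1 site).

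**Figure D3:**
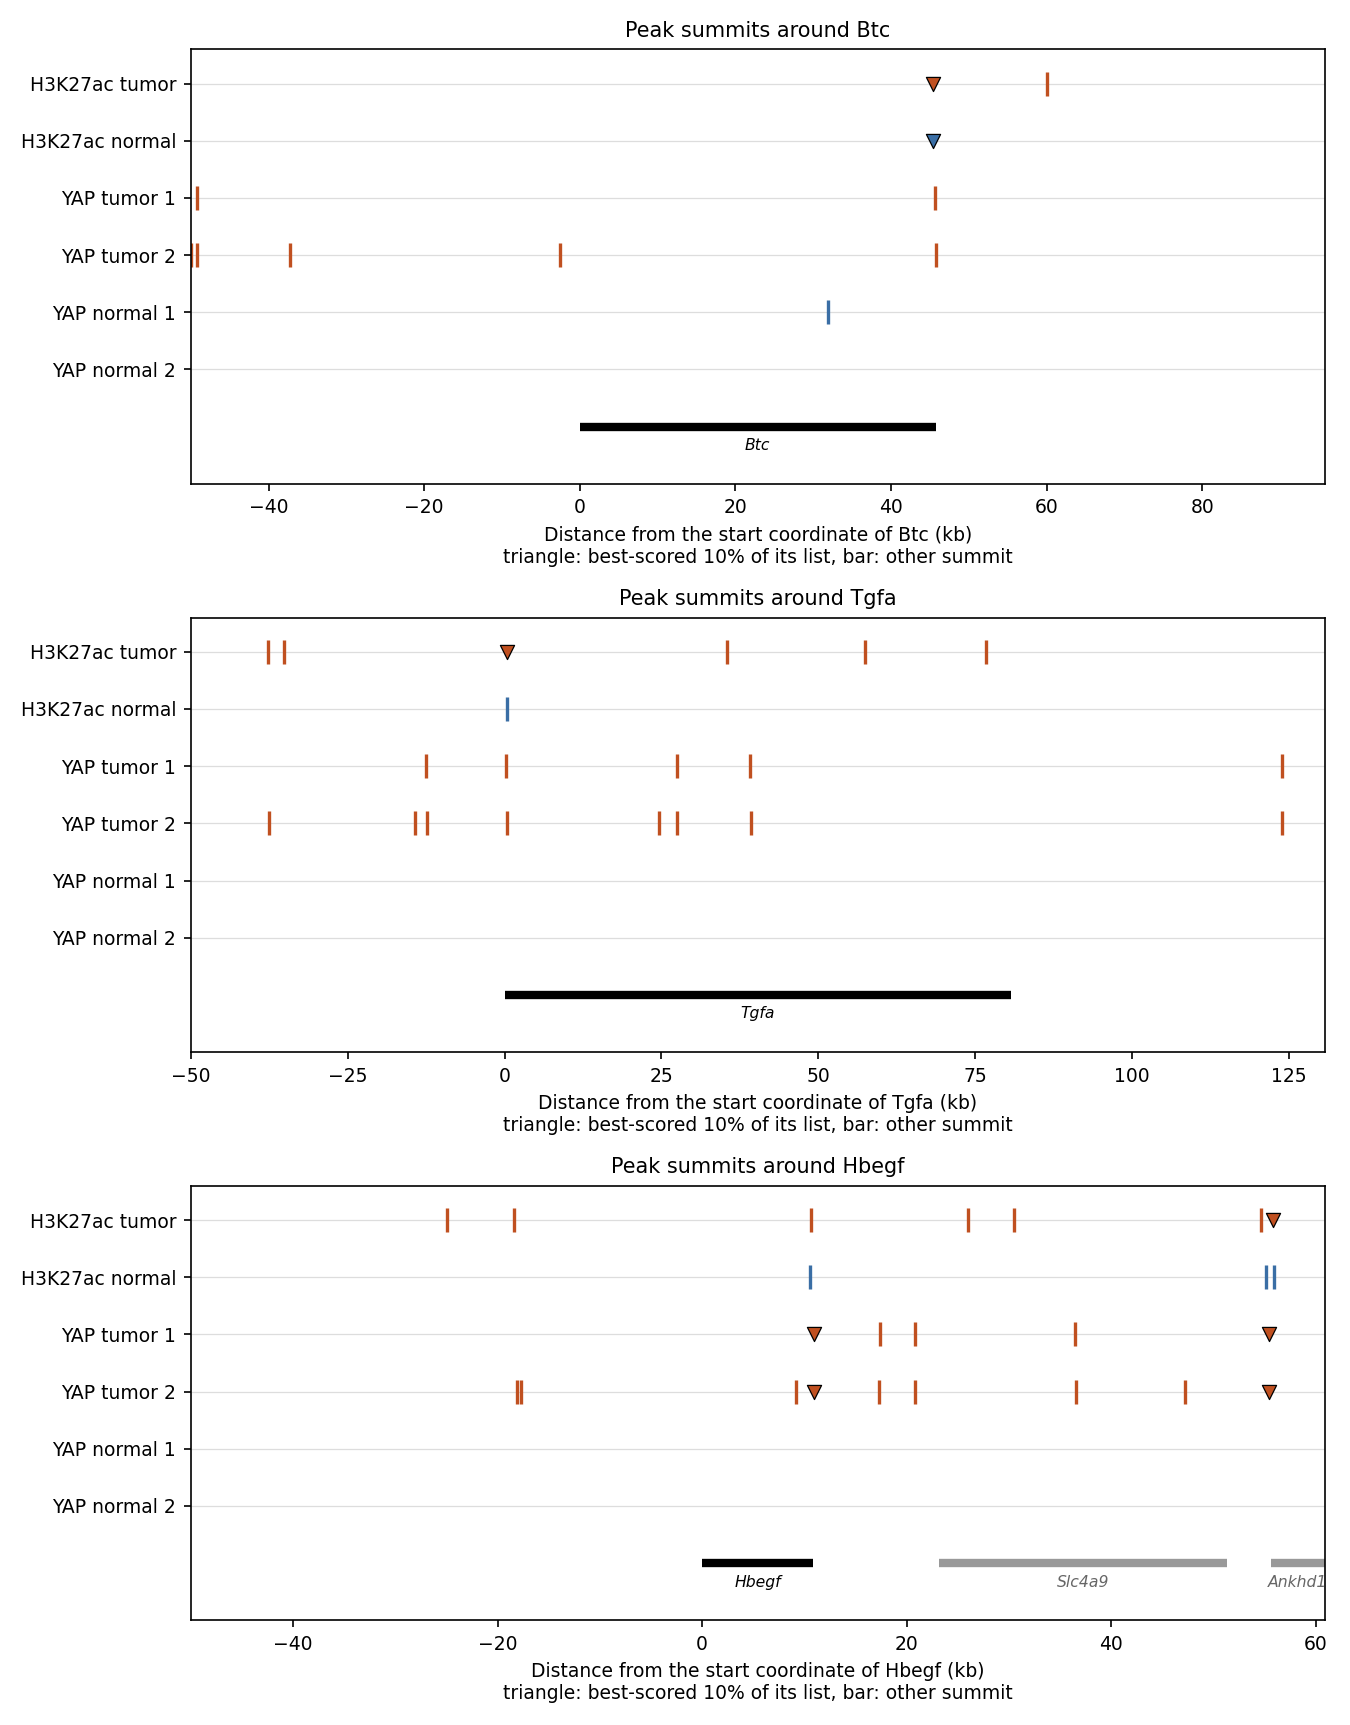
Summits of the 6 lists around Btc, Tgfa and Hbegf, with distance from each gene's start coordinate in kb on the x axis and 1 row per list; triangles are in the best-scored 10% of their list. In each panel YAP of both tumor libraries and H3K27ac of both tissues coincide at 1 boundary of the gene, and the only normal YAP summit is inside Btc.

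Egfr encodes the EGF receptor itself. Around the gene (chromosome 11, 16752203 to 16913907) there were 7 and 13 YAP summits in tumor 1 and tumor 2, and 0 and 0 in normal 1 and normal 2. YAP stood 253 bp inside the start in tumor 1 (rank 17412) and 66 bp inside it in tumor 2 (rank 7519). H3K27ac stood 205 bp inside in tumor (score 119, rank 6828 of 66896). In normal it stood 488 bp inside (score 17.6, rank 9449 of 22574). Of the 6 sites of both tumor libraries 4 lay within the gene. The best-ranked of these, at 16800780 and 48577 bp from the start, had ranks of 4735 in tumor 1 and 2667 in tumor 2. That site and the one at 16770134 had a normal H3K27ac summit within 1 kb (618 and 234 bp away) and no tumor one (8808 and 17726 bp away). The reverse held 37359 bp beyond the gene end, at position 16951266 and 42 bp inside the neighbouring gene Fbxo48, where tumor H3K27ac (rank 24474 of 66896, outside the shortened list) was 256 bp away and normal H3K27ac 100994 bp away.

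Erbb2 encodes the receptor that has no known ligand of its own and is amplified in some human gastric cancers. Its window (gene at chromosome 11, 98412484 to 98437716) held 10 and 14 YAP summits in tumor 1 and tumor 2, and 0 and 1 in normal 1 and normal 2. The promoter summits lay 90 and 89 bp before the start in tumor 1 and tumor 2, with ranks of 10419 and 9699, beside the GGAATG described above. H3K27ac lay 191 bp inside the start in tumor (score 242, rank 2046 of 66896). In normal it lay 262 bp inside (score 49.2, rank 3430 of 22574), with a further normal summit 390 bp outside the start. The best-ranked site of the receptor genes in tumor 1 was at 98438931, 1215 bp beyond the Erbb2 end and within the annotated span of Mien1. Its rank was 621 in tumor 1 and 1721 in tumor 2, and H3K27ac was 136 bp away in tumor and 153 bp away in normal. A site inside Erbb2 at 98419163 had tumor H3K27ac 90 bp away (rank 41599 of 66896, also outside the shortened list), while the nearest normal summit was 6417 bp away.

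The Erbb2 window also held the single member site with a normal YAP summit. At 98400346, inside Pgap3 and 850 bp from its nearer end, summits ranked 5306 in tumor 1 and 5787 in tumor 2 lay 13 bp from a normal 2 summit of low rank (2033 of 2141, score 2.85). Among all sites of both tumor libraries 4.37% had a normal 2 summit within 1 kb, against 1 of 41 here. The window is gene-dense, with 7 other protein-coding genes in reach, and 3 of its 9 sites had Erbb2 as the gene of the nearest end.

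Erbb3 encodes a receptor with little kinase activity of its own that signals through its partners. Around the gene (chromosome 10, 128567523 to 128589635) there were 11 and 15 YAP summits in tumor 1 and tumor 2, and none in normal 1 or normal 2. The leading site at 128566103 ranked 2516 in tumor 1 and 454 in tumor 2, and lay between Erbb3 and Pa2g4, 169 bp from the end of Pa2g4. H3K27ac was 462 bp away in tumor and 391 bp away in normal. At the end coordinate of Erbb3, YAP stood at 128589925, 290 bp outside (ranks 8279 in tumor 1 and 12400 in tumor 2). H3K27ac stood 650 bp outside in tumor (score 231, rank 2393 of 66896). In normal it stood 630 bp outside (score 67.9, rank 1911 of 22574). Both sites inside Erbb3 lacked H3K27ac within 1 kb in either tissue. With 6 other genes in reach, 3 of the 10 sites had Erbb3 as the gene of the nearest end.

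**Figure D4:**
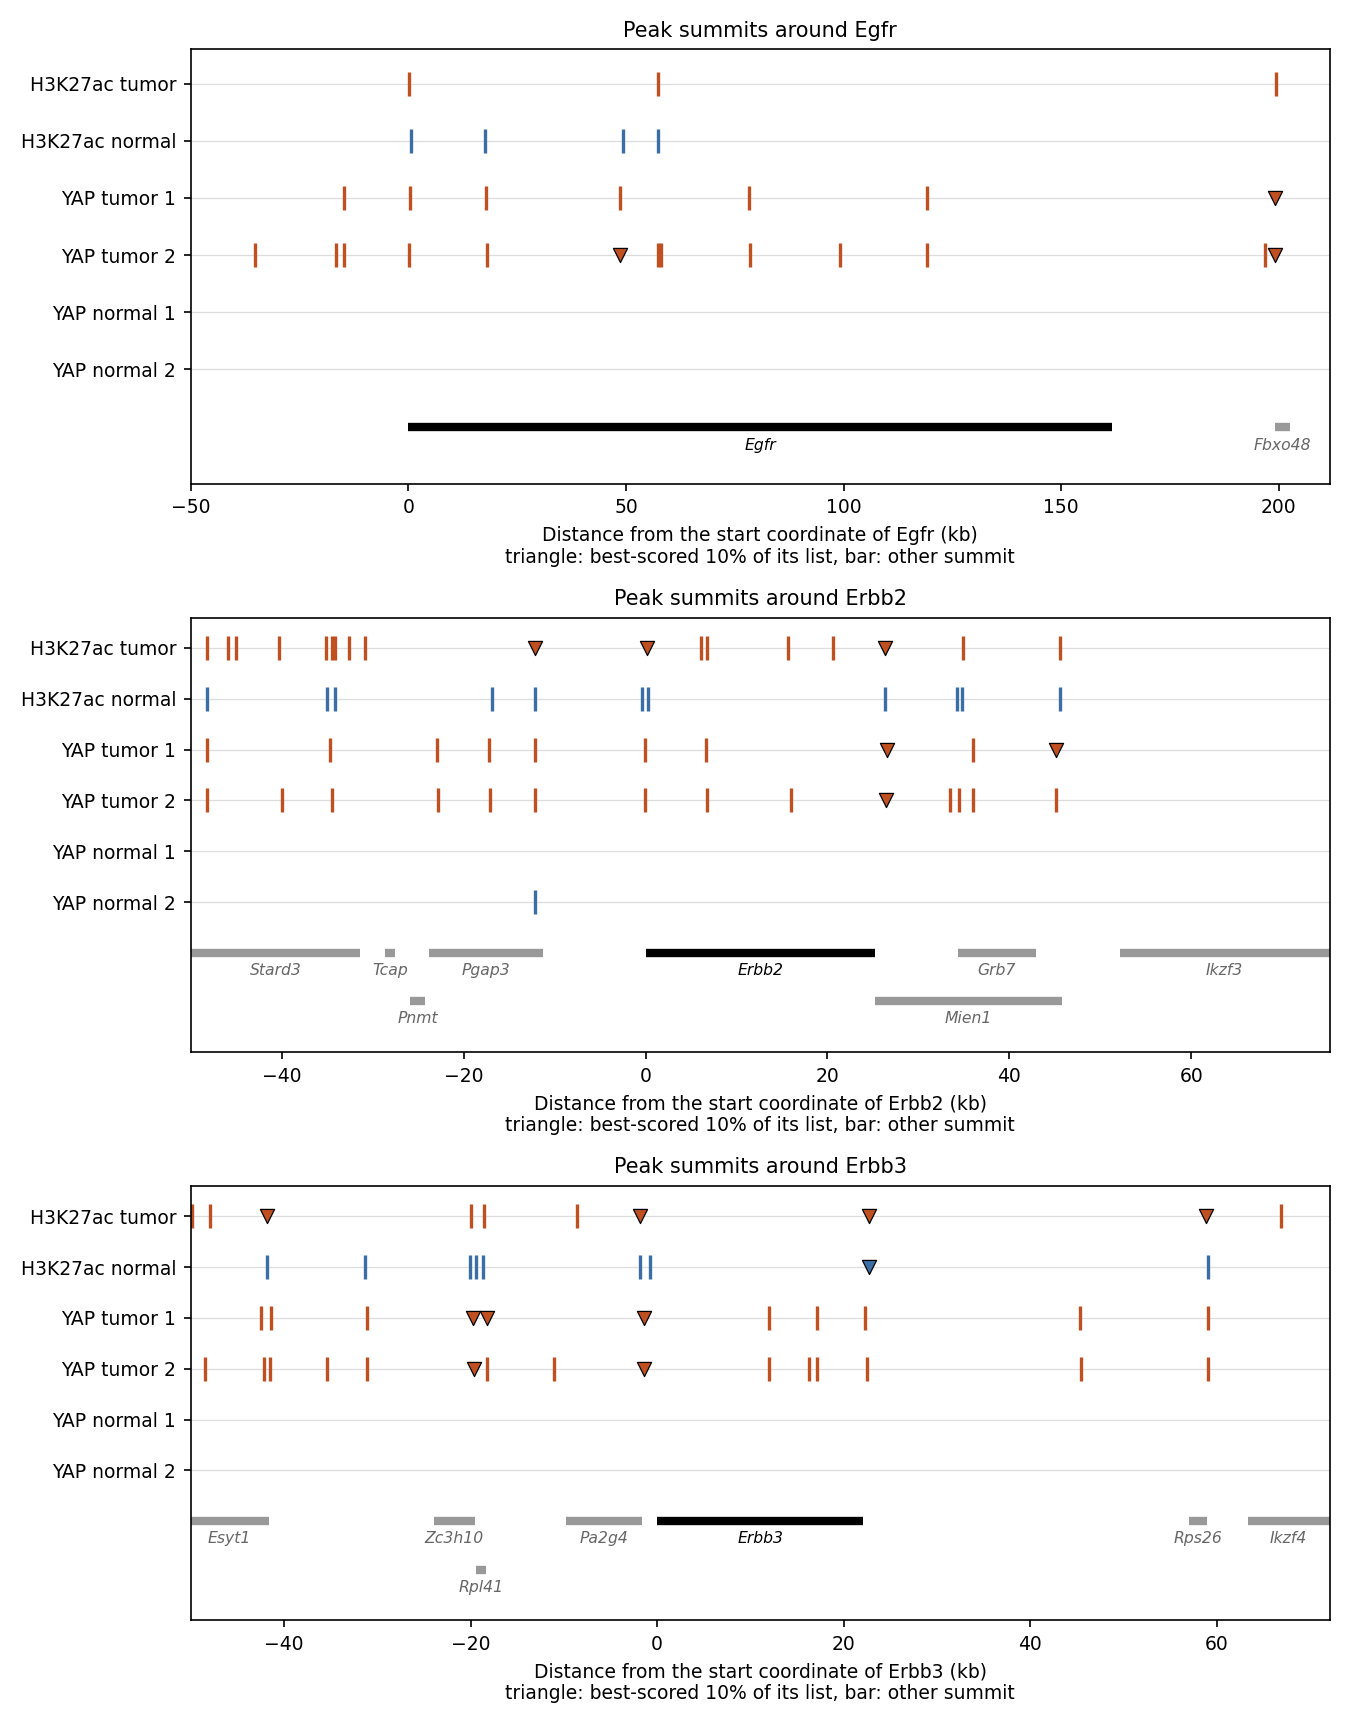
Summits of the 6 lists around Egfr, Erbb2 and Erbb3, with distance from each gene's start coordinate in kb on the x axis and 1 row per list; triangles are in the best-scored 10% of their list. Within Egfr 4 sites were shared by both YAP tumor libraries, and further tumor summits had no partner in the other library, while in the gene-dense Erbb2 and Erbb3 windows most lie at or beside neighbouring genes; 1 normal YAP summit is present, 12151 bp before the Erbb2 start.

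The strength of the sites varied widely within the family. Sites ranked in the best 10% of both tumor lists, a bound chosen after the values were seen, were present at Hbegf, Egfr, Erbb2 and Erbb3, 4 of 9 members against 33.3% of all genes. For Egfr the site is at Fbxo48, and for Erbb3 the sites have Zc3h10 and Pa2g4 as the gene of the nearest end. At Areg, Ereg, Epgn, Btc and Tgfa the best rank in tumor 1 was between 4671 (Areg and Ereg) and 6819 (Tgfa) of 38268. The site ranked 4671 has Ereg as the gene of the nearest end, and the site at the Areg start ranked 8107. The median of the 41 sites in the windows stood at 22.1% of the tumor 1 list and 16.0% of the tumor 2 list, counted from the best score. For all 29492 sites of both tumor libraries, near a gene or not, it was 42.0% and 30.3%. Of the 41 sites 23 had a member as the gene of the nearest end, so the median also covers sites of neighbouring genes.

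**Figure D5:**
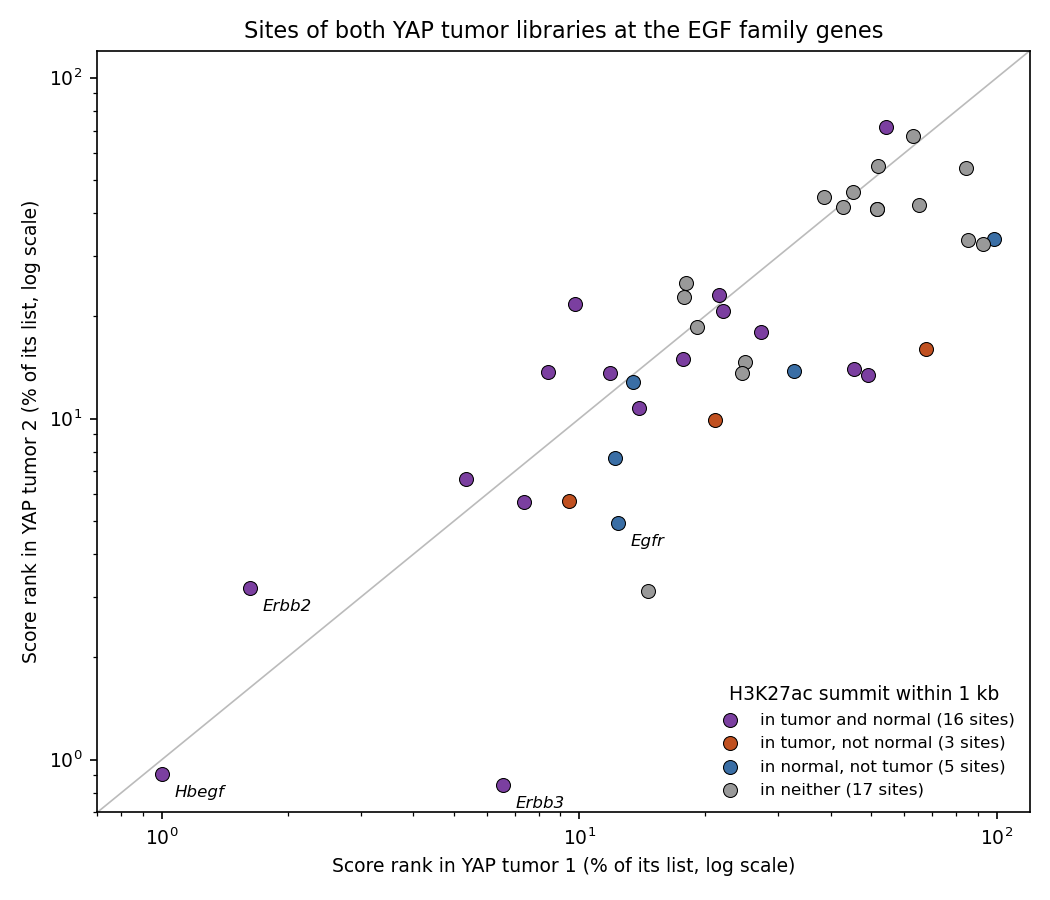
Each of the 41 sites of both YAP tumor libraries by its score rank in tumor 1 (x) and tumor 2 (y), as a percentage of the list on log axes with the best scores at the lower left; colours give H3K27ac summits within 1 kb. The Hbegf site is the best in tumor 1 and the Erbb3 site the best in tumor 2, 16 sites have H3K27ac in both tissues, and 17 have it in neither.

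H3K27ac accompanied about 1 in 2 of these sites. Within 1 kb, 19 of the 41 sites (46.3%, Wilson 95% interval 32.1 to 61.3) had a tumor H3K27ac summit and 21 (51.2%, 36.5 to 65.7) a normal one. Over all 29492 sites the shares were 52.0% and 47.4%, both inside these intervals. Tumor H3K27ac without normal was found at 3 sites (7.32%, 2.52 to 19.4), at the Areg start, inside Erbb2 and at Fbxo48. Normal H3K27ac without tumor was found at 5 (12.2%, 5.32 to 25.5). These lay between Ereg and Areg, at 2 sites within Egfr, within Pgap3 and near Zc3h10. Over all 29492 sites the shares were 11.4% and 6.80%, both inside these intervals. With the tumor list shortened to the normal length, the site at the Areg start was the 1 left with tumor H3K27ac alone, and 7 had normal H3K27ac alone. Shares over all sites at equal length are not given here. The ligand sites had tumor H3K27ac at 5 of 16 and the receptor sites at 14 of 25 (31.2%, 14.2 to 55.6, and 56.0%, 37.1 to 73.3), with intervals that overlap. A member was the gene of the nearest end at 12 of the 16 ligand sites and at 11 of the 25 receptor sites. The other sites have a neighbouring gene there. Of the 23 sites with a member as the gene of the nearest end, 9 (39.1%) had tumor H3K27ac.

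The number of H3K27ac summits in the windows gave no stable direction between tissues. With the tumor list shortened to the 22574 summits of the normal list, the windows held 20 tumor and 33 normal summits, a ratio of 0.606 (95% exact interval 0.330 to 1.09, counting error only). With full lists they held 50 and 33, a ratio of 1.52 (0.957 to 2.43), against 2.96 for the whole lists. There is 1 library per tissue and no replicate check. Egfr was the 1 member at least 2-fold lower in tumor at equal list length (count plus 1), with 1 tumor and 4 normal summits, a ratio of 0.250 (0.00508 to 2.53). This held for 7.91% of all genes. No member was at least 2-fold higher, against 12.8% of all genes. With full lists Egfr had 3 tumor and 4 normal summits and was no longer past 2-fold. At equal length with a score minimum of 10 Egfr had 1 and 1. Tgfa and Hbegf were at least 2-fold higher with full lists, 2 of 9 against 53.7% of all genes. None was at least 2-fold lower with full lists, against 0.836% of all genes. The members' median log2 ratio was -0.58 at equal length (all genes 0) and 0.42 with full lists (all genes 1.0).

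Other genes of the pathway also had YAP nearby in the tumor libraries. Of 27 listed genes for further ligands and receptors, sheddases, adaptors, RAS proteins and inhibitors, 25 had a site of both tumor libraries, and the same 79.2% of all genes is the background. Stat3, a transcription factor activated by the receptors, had 13 and 14 YAP summits in tumor 1 and tumor 2, against 0 and 2 in normal 1 and normal 2. Rhbdf2, which encodes the iRhom2 partner of the sheddase ADAM17, had 12 and 17 in tumor against 0 and 0 in normal. Grb2, an adaptor gene, had 11 and 15 against 0 and 1, and Sos2, a RAS exchange factor gene, 13 and 15 against 1 and 1. Shc1, another adaptor gene, had 11 and 12 and Hras 11 and 10, both against 0 and 0. These 6 have the most sites of the list, from 9 to 12 each.

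The genes without a site of both tumor libraries were Erbb4, the fourth receptor, and Nrg3, a neuregulin ligand of ERBB4. Erbb4 had 0 and 2 YAP summits in tumor 1 and tumor 2, against 1 and 0 in normal 1 and normal 2. Nrg3 had 1 and 0 in tumor against 0 and 0 in normal. H3K27ac summits numbered 9 at Erbb4 and 7 at Nrg3 in the full tumor list and 0 at each in the normal list. At equal list length they were the 2 listed genes at least 2-fold higher in tumor (2 of 27, against 12.8% of all genes), and 7 of 27 were at least 2-fold lower (against 7.91%), Egf, Rhbdf2, Sos1, Sos2, Gab1, Errfi1 and Lrig1. With full lists 12 of 27 were at least 2-fold higher (against 53.7%) and 0 of 27 at least 2-fold lower (against 0.836%). The log2 ratio of Rhbdf2 was -1.0 at equal length and 1.25 with full lists. Egf, the gene of the founding ligand, had 3 and 4 YAP summits in tumor against 0 and 0 in normal.

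Genes with summit counts most like those of the 3 members with the most sites were found by the Euclidean distance of log2(count + 1) over the 6 lists. For Erbb3 they were Eef1d (distance 0.14), B4galt1 and Taldo1 (0.15 each). For Erbb2 they were Mrpl58 (0.19), Ccdc194 and Kctd2 (0.22 each). For Egfr they were Shisal2a (0.11), Etfbkmt and Fgf1 (0.20 each). The 6 values of a gene come from the same 6 lists, whose lengths differ.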

How the data were processed

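The deposited files hold 1 list of peak summits per library, each line a 1 bp position with a score. Bowtie2 and MACS2 and the build GRCm38 (mm10) are named, per the submitters' processing notes. Reads were 50 bp pairs, per the labels. Not given in the sources used here are versions, thresholds, and whether a control was used. The deposited score is the authors' −log10 value, with no statement whether of p or q, and was used only to rank summits within a list. Summits and peak names differ between lists, so calling was per library.

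Unplaced scaffolds and chrM were left out. Gene positions and promoters came from RefSeq tables of GRCm38.p6; exon and intron positions and sequence at distal sites were not used here. Windows, site pairing (200 bp, closest first) and H3K27ac overlap (1 kb) were computed with Python 3.11.15, numpy 2.4.6 and pandas 2.3.3, intervals with scipy 1.17.1 and figures with matplotlib 3.10.9. Pairing was tested on simulated lists, and window counts against a direct count of the YAP tumor 1 list at a sample of genes. YAP groups were compared by an exact permutation test. The members, the lists and the rule for named genes (all members, up to 6 pathway genes with the most sites and any with none, neighbours of sites, and the 3 genes most alike) were chosen with earlier results of these data known. No summit of 1 YAP replicate had the position and score of a summit of the other (0 in tumor, 0 in normal). The result of 1 marker gene is not reported here. Intervals cover counting error only.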

Additional observations from a re-analysis of the deposited data

How the results depend on the processing

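The log2 ratio of YAP summits in the windows, tumor over normal, was 4.87. All of the 14 alternatives gave a positive value. They include the grouping by peak-name words, which is another comparison, and the replicate block, which cannot change the value. The ratio ran from 4.52 to 5.21 when each YAP library was left out in turn, and was 1.08 with lists at the length of the shortest. The grouping by words compares Clu_Yap over cre, not tumor over normal, and gave 0.34. With the replicate number as a block the tumor over normal log2 ratio was 4.87 (exact sign-flip p = 0.5, the smallest 2 pairs allow). Over genes, the deviations of same-numbered libraries from their group means had a correlation of 0.0269. Both normal libraries had a median of 0 summits per gene, so this value cannot show whether the numbers are pairs. The main comparison does not take them as pairs.

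All 9 members kept a site of both tumor libraries with windows of 10 or 100 kb, nearest gene ends, score minimums of 5 and 10 and pairing within 100 bp. The count was also 9 with wider pairing and with a summit in either tumor library alone, which cannot lower it. The count was 5 for sites inside the gene only, 4 for sites in the best 10 percent of both lists (a bound added after seeing the data) and 1 (Erbb2) under the grouping by words. Members with a normal site were 0, and 1 with either normal library left out (Erbb2 without normal 1, Btc without normal 2). The H3K27ac log2 ratio of -0.70 became 0.58 with full lists, which shortens neither list; it was -0.07 at a score minimum of 10. The share of sites with tumor H3K27ac ran from 36.4% to 56.0% and the count of pathway genes from 22 to 26. The unknown depth limits every comparison of list lengths, and with 1 H3K27ac library per tissue no spread between samples is known.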

Other observations

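Several sites in the windows lie at neighbouring genes. At 98448474, inside Grb7, which encodes an adaptor that binds the ERBB2 receptor, a site of both tumor libraries lay 1640 bp from the nearer gene end, with tumor H3K27ac 1133 bp away and normal H3K27ac 1224 bp away. At Mien1, which overlaps Grb7, the site at 98457664 had H3K27ac 440 bp away in tumor and 377 bp away in normal. Beside Erbb3, sites lay 88 bp outside Rps26 and 82 bp outside Rpl41, both ribosomal protein genes, and 231 bp outside Esyt1, each with H3K27ac of both tissues within 1 kb. At Rps26 the summits of tumor 1 and tumor 2 fell on the same base, 128626594. Ankhd1, beside Hbegf, had a site 259 bp outside it with ranks of 2043 in tumor 1 and 3585 in tumor 2.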
